A study of Mus musculus with 4 samples.

Results

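The glucocorticoid receptor (GR) was called at 789 sites in the first intron of a gene, outside annotated repeats, in adipose progenitors carrying PDGFRa, the receptor by which these cells were sorted. They were taken from a deposited list of 10402 peaks of 1 chromatin immunoprecipitation and sequencing library. A peak was included when it lay on an autosome, when its annotation placed it in intron 1 of a named transcript, and when its detailed annotation named no repeat element. The 789 peaks were 30.3% (95% Wilson interval 28.6 to 32.1) of the 2600 autosomal intron peaks outside repeats, and the other 1811 lay in later introns. No score entered this choice. A first intron is counted here along the transcript that the list names, and the same bases can be a later intron of another transcript.

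The cells were adipose progenitors of C57BL/6 mice, sorted with magnetic beads from SAT or VAT (the labels do not say which depot each cell type came from). They were exposed to a cocktail that drives adipogenesis, and all of them, inputs included, received dexamethasone, a synthetic glucocorticoid, at 1 µM. The series holds 4 libraries: GR immunoprecipitate from PDGFRa+ cells, GR immunoprecipitate from CD137+ cells, and the input of each. With 1 library per group and no cells without dexamethasone, no value below has a replicate check and no effect of the hormone can be read. Read depth is unknown, the inputs were not analysed here, and no p-value was computed. The intervals given cover counting error only. The labels' extraction protocol speaks of embryonic cells and a zona pellucida, although the source is adipose tissue. The scores are the authors' and were used to rank peaks within the list alone.

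GR is a nuclear receptor that is held in the cytoplasm until it binds glucocorticoid, then enters the nucleus and binds DNA, often as a dimer on paired hexamers close to AGAACA or through other transcription factors. In adipose progenitors glucocorticoids are a standard part of adipogenic cocktails. First introns follow the first exon, downstream of the promoter, and often hold enhancers. In long genes, however, they can extend far from the start site.

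The members closest to a start site lay directly beside their promoter, and the promoters of 4 of the 5 closest are shown because they display the sequence next to which these peaks were called. Each run gives RefSeq bases of GRCm38.p6 on the gene's own strand, 250 before the start site and 50 after it, with CG dinucleotides in capitals. The remaining gene of the 5, Scaper, has several annotated starts and is not shown. The windows are Shox2 at chr3:66981722-66982021 (minus strand), Bahd1 at chr2:118901365-118901664 (plus strand), Ctsd at chr7:142387778-142388077 (minus strand) and Tmem120a at chr5:135744123-135744422 (minus strand).
Shox2: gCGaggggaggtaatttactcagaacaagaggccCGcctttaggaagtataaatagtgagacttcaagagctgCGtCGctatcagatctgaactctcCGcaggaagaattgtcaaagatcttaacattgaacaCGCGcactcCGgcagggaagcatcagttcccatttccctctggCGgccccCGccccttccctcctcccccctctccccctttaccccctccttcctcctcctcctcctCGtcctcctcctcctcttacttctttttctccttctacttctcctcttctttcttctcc
Bahd1: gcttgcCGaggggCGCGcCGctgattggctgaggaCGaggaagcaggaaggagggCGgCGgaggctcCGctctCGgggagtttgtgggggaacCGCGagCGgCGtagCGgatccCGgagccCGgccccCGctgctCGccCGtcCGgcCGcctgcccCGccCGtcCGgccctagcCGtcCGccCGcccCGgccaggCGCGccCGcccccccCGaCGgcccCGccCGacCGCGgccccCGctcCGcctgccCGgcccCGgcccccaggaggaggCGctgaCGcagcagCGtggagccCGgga
Ctsd: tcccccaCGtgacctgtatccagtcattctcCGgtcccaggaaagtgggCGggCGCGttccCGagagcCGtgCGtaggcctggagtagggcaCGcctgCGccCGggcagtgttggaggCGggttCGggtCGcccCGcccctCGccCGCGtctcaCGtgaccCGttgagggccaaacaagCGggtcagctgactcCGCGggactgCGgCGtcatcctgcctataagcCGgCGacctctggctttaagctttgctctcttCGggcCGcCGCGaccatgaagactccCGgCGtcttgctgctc
Tmem120a: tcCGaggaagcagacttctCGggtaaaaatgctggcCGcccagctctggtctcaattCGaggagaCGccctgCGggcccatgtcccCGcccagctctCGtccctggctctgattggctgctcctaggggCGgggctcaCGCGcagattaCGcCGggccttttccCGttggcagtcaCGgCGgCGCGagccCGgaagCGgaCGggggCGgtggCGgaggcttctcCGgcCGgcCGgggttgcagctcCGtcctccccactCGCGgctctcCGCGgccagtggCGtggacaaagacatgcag
The 4 windows differ in CG content. Bahd1, which encodes a protein that promotes heterochromatin, had 45 CG dinucleotides and 81.0% G and C. Ctsd, the gene of the lysosomal protease cathepsin D, had 33 CG dinucleotides, and Tmem120a, which encodes a transmembrane protein of the nuclear envelope, had 32. Shox2, a homeobox gene of skeletal development, had 11 CG dinucleotides and 53.3% G and C, the lowest of the 4. By the list's own distances, the Shox2 peak ran from 27 to 175 bp and the Ctsd peak from 35 to 305 bp downstream of the start. The Bahd1 peak began at 78 bp and the Tmem120a peak at 110 bp. The first 2 thus reach into the printed window if both annotations use the same start, while the others begin beyond its end.

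The list's coordinates are not on GRCm38, and no genome of their build was at hand, so the bases under the peaks are not shown. Promoter windows were searched instead, on both strands, for the hexamer AGAACA, which is TGTTCT on the other strand. Windows were available for 543 of the 691 nearest genes, 69 of them with a first-intron peak within 1 kb of a start. A gene with several starts has several windows. The hexamer was present in 19 of 91 windows (20.9%) of the 69 genes and in 124 of 761 windows (16.3%) of the 543 genes. Among all RefSeq windows the share was 6233 of 32851 (19.0%). These raw shares of promoter windows were of similar size. The median G and C content was 61.7% for the 69 genes, 60.3% for the 543 genes and 52.7% over all windows. The shares were not adjusted for that, so whether the hexamer is more or less frequent than composition gives was not tested. Of the 4 printed windows only that of Shox2 holds it. The paired motif, GNACA followed after NNN by TGTNC with N as any base, was found in 0 of 91 windows of the closest genes. It was found in 7 of 761 windows (0.920%) of the 543 genes, against 156 of 32851 (0.475%) of all windows. The windows end 50 bp into the gene and so lie outside most of the peaks. Base composition differed more. The median window had 20 CG dinucleotides for the 69 genes and 16 for the 543 genes, against 7 over all windows. The windows of all 27025 genes were not matched to these genes in length or gene type, so whether this is a trait of the members was not tested.

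Intron 1 held more peaks than any other intron. It had 789, intron 2 had 411, intron 3 had 277, intron 4 had 196 and intron 10 had 44. Later introns exist in fewer transcripts, so each peak was also spread evenly over all introns of its own transcript. That even spread would put 332.497 peaks (12.8%) in intron 1 and 296.497 in intron 2. The observed counts were 2.37 and 1.39 times these values, while intron 3 was at 1.09, intron 4 at 0.905 and intron 10 at 0.474 times. The last intron of transcripts with at least 2 introns held 200 peaks, 0.675 times its even count. The ratio was lower at each step from intron 1 to intron 5 (0.814). Intron lengths were not available on the list's build, and first introns are often the longest, so whether intron 1 exceeds its share of bases was not tested.

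**Figure D1:**
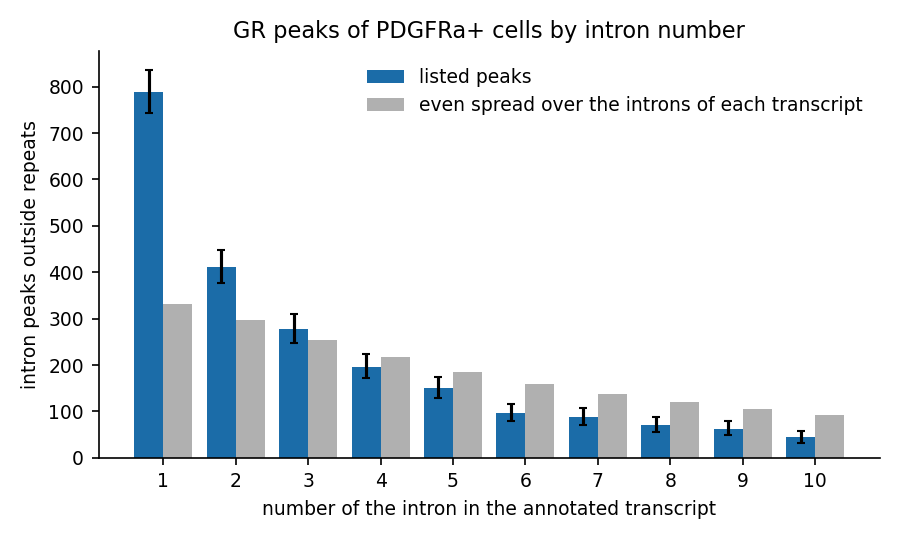
Number of PDGFRa+ GR peaks outside repeats (vertical axis) by the number of the intron that holds them (horizontal axis), as observed and as an even spread over the introns of each peak's transcript would give. Observed counts exceed the even spread at intron 1 (789 against 332.497) and intron 2 (411 against 296.497) and lie below it from intron 4 on.

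Intron 1 held more than its even share in transcripts of each size class with later introns, although with 2 introns the interval includes the even value. In transcripts with 3 to 5 introns, intron 1 held 162 of 375 intron peaks (43.2%, interval 38.3 to 48.3), where an even spread gives 25.8%. With 6 to 10 introns it held 194 of 615 (31.5%) against 12.9%, and with 11 to 20 introns 186 of 788 (23.6%) against 6.97%. With 21 to 50 introns the share was 150 of 613 (24.5%, interval 21.2 to 28.0) against 3.71%. In the longest series, 51 to 312 introns, it was 13 of 90 (14.4%, interval 8.64 to 23.2) against 1.43%. The gap to the even spread was narrowest in transcripts with 2 introns, where 48 of 83 peaks (57.8%, interval 47.1 to 67.9) lay in the first and 50% would be even. A further 36 members sat in transcripts whose only intron is the first, among them the Kctd16 peak described below.

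First-intron peaks lay closer to a start site than later-intron peaks, in part because a first intron begins near the start by definition. Their median distance to the nearest start was 11319 bp (quartiles 2299 and 38167), against 44986 bp (17725.5 and 107426) in later introns. Within 5 kb of a start lay 284 first-intron peaks (36.0%, interval 32.7 to 39.4) and 112 later-intron peaks (6.18%, 5.17 to 7.39). Within 1 kb the counts were 84 (10.6%) and 16 (0.883%). Read the other way, first introns held 84.0% of the intron peaks within 1 kb of a start, 67.6% of those from 1 to 5 kb, 35.3% from 5 to 20 kb, 20.2% from 20 to 100 kb and 14.8% beyond. The ranges of both classes overlap widely, since 85 first-intron peaks (10.8%) lay over 100 kb from a start. Set against the length of the gene, the distance to the nearest start had a median of 10.3% (quartiles 3.73% and 24.3%). This was taken for the 688 members downstream of a start of the gene that holds them. That start need not be the gene's first, so these values are not positions along the gene. In Zfp982 a distance exceeded the gene's length (178851 against 72951 bp).

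**Figure D2:**
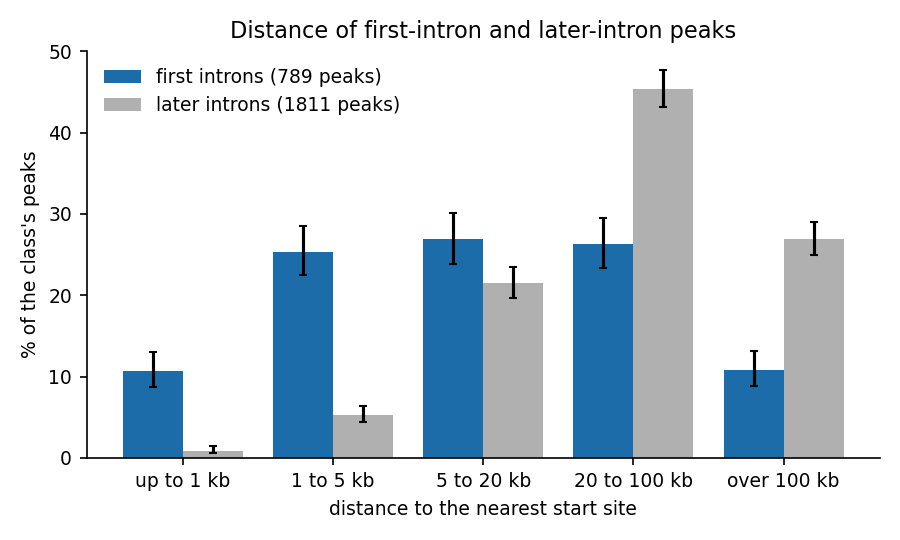
Share of peaks in percent (vertical axis) by distance to the nearest start site (horizontal axis, 5 ranges) for the 789 first-intron and the 1811 later-intron peaks outside repeats, with 95% Wilson intervals. Within 1 kb lie 10.6% of first-intron and 0.883% of later-intron peaks, and beyond 100 kb 10.8% and 26.9%.

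The members nearest to a start were in Shox2 (101 bp, score 33), Scaper (124 bp, score 32) and Bahd1 (151 bp, score 33). At slightly shorter distances, and annotated as promoter peaks, were those of Col16a1 (96 bp, score 41), Mfsd2b (94 bp, score 48) and Tspyl3 (93 bp, score 49). Distance alone does not divide the classes, since 28 of the 260 promoter peaks lay 110 to 671 bp downstream of the nearest start. After Bahd1 came Ctsd at 170 bp (score 26) and Tmem120a at 183 bp (score 40). Gm15880 at 201 bp (score 33, no CpG island label) has a predicted name and is left out of this order. Then came Erich1 at 262 bp (score 40), Plg, the plasminogen gene, at 263 bp (score 26), and Serpinb6b, a serine protease inhibitor gene, at 264 bp (score 30). The first 5 of these 8 named genes carried a CpG island label and the last 3 did not.

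CpG island labels were concentrated near the start. Of the 789 members 32 (4.06%, interval 2.89 to 5.67) carried one, against 2 of 1811 later-intron peaks (0.110%) and 17 of 3060 intergenic peaks outside repeats (0.556%). Of the 32, 24 lay within 1 kb of a start, where they were 28.6% of the members (upper bound 39.0%), and 5 between 1 and 5 kb. The strongest of the 24 was in Atp2b1, the gene of a plasma membrane calcium pump, with a score of 66 at 728 bp. It was followed at a score of 58 by Pak2, a p21-activated kinase gene, at 476 bp and Syndig1, a synapse protein gene, at 477 bp. Only 3 labelled members lay more than 5 kb from the nearest listed start, in the first introns of Klf13 (score 77), Nfia (score 23) and Prickle1 (score 26). Promoter peaks keep their promoter label in that column, so their CpG islands cannot be counted in the same way.

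Some members lay upstream of the nearest start although they were inside a transcript. This held for 75 members (9.51%, interval 7.65 to 11.8) and for 454 later-intron peaks (25.1%, 23.1 to 27.1). Of the 75, 36 lay upstream of a start of the gene that holds them, such as the peaks of Hif3a and Nfia below, and 39 upstream of the start of another gene. For 724 of the 787 members whose transcript was found in the gene table (92.0%) the gene of the transcript was also the gene with the nearest start. For the other 63 the list names a neighbour, and the gene that holds the intron is given here as the host. Most members, 732 (92.8%), were in coding transcripts.

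Scores of first-intron peaks did not stand apart from those of other peaks. Their median was 37 (quartiles 32 and 41, range 20 to 87), against 33 (33 and 41, range 20 to 153) in later introns and 33 in the whole list. Promoter peaks had a median of 37 (range 20 to 76) and intergenic peaks outside repeats a median of 35 (range 20 to 413). A score of 50 or more was reached by 54 members (6.84%, interval 5.28 to 8.82), against 119 later-intron peaks (6.57%) and 8.88% of the whole list. The share was thus near that of later introns and its interval ends just below that of the list. The scores take few values: 41 was given to 189 members, 33 to 181, and 49 and 26 to 85 each, so the 5 most frequent scores cover 73.8% of the members. Small differences between medians are steps between such values. Most members, 566 (71.7%), had the least width of the list, 146 bp.

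**Figure D3:**
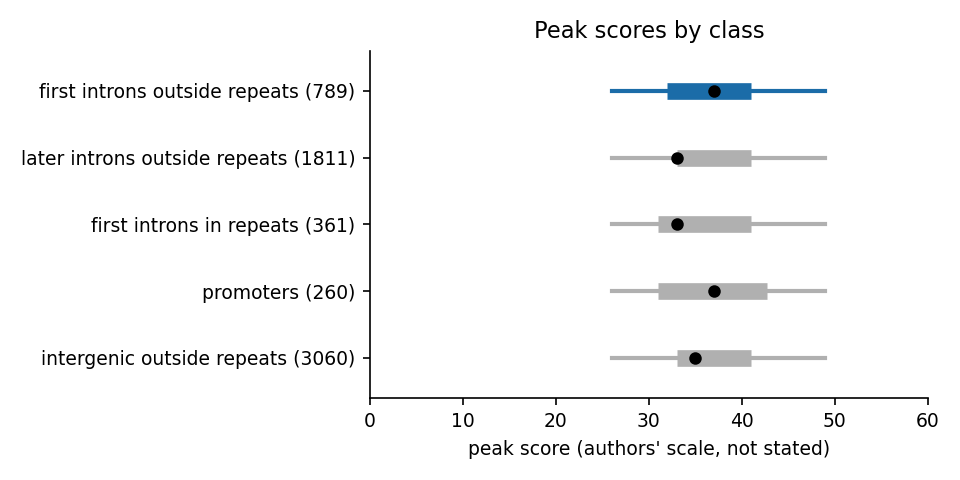
Authors' peak score (horizontal axis, scale not stated) in first introns and in 4 other classes of the PDGFRa+ list, with the median as a dot, quartiles as a box and the 10th to 90th percentile as a line. Every class runs from 26 to 49 between these percentiles, and medians lie between 33 and 37.

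Scores also varied little with distance. Median scores were 33.5 within 1 kb, 38 from 1 to 5 kb, 33 from 5 to 20 kb and 38 in both ranges beyond. Scores of 50 or more were found in each range, with 4 of 84 members within 1 kb (4.76%, interval 1.87 to 11.6), 14 of 200, 11 of 212, 17 of 208, and 8 of 85 beyond 100 kb (9.41%, 4.85 to 17.5). Those intervals overlap.

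**Figure D4:**
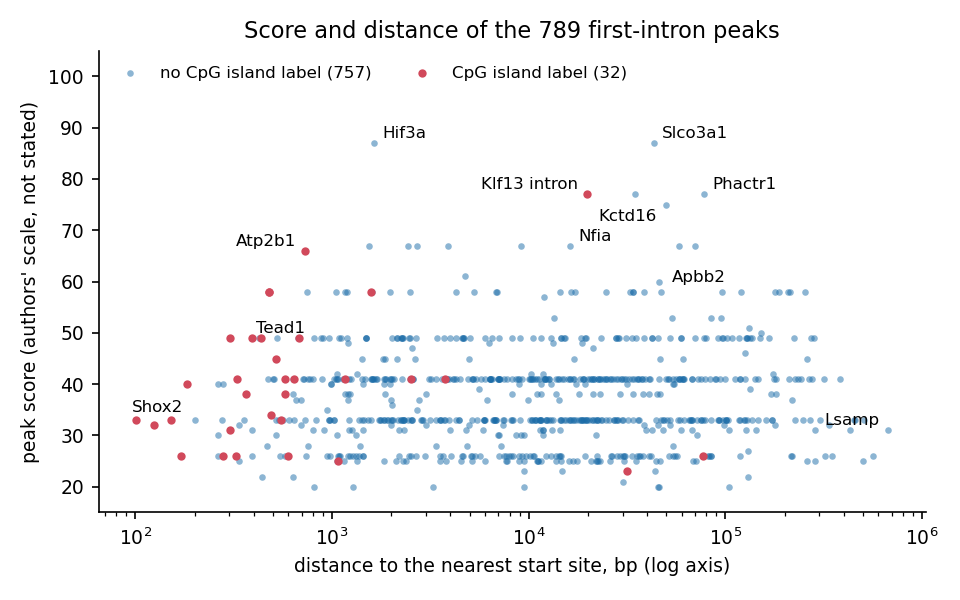
Authors' score (vertical axis) against distance to the nearest start site in bp (horizontal axis, logarithmic) for each of the 789 first-intron peaks, with peaks labelled as CpG island in red. The red points gather within 1 kb, while the highest scores, 75 to 87, lie between 1639 bp (Hif3a) and 78079 bp (Phactr1).

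The highest score among first introns, 87, was shared by peaks in Hif3a and Slco3a1. Hif3a encodes a subunit of hypoxia-inducible factors and is known as a glucocorticoid-responsive gene. Its peak (chr7:17643539-17643796 as deposited) lay in intron 1 of 14, 1639 bp upstream of the nearest start, and was 258 bp wide. Slco3a1 encodes an organic anion transporter. Its strongest peak (chr7:81656250-81656398) lay 43342 bp from the start, and a weaker first-intron peak of the gene (score 41) lay at 1067 bp. Phactr1, which encodes a regulator of actin and of protein phosphatase 1, scored 77 at 78079 bp and 41 at a second peak. Kctd16, the gene of an auxiliary subunit of GABA-B receptors, scored 75 at 49851 bp in the only intron of its transcript, and 41 at a second peak. In these last 3 genes the stronger peak therefore had a weaker first-intron companion.

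A score of 67 was given to 8 members, all of them in genes that the naming rule covers. Close to a start were Erbin at 1546 bp, whose product is a scaffold of the ERBB2 receptor, Fkbp10 at 2422 bp, which encodes a prolyl isomerase that acts on collagen, Crim1 at 2694 bp, the gene of a transmembrane protein that binds BMPs, and AA986860 at 3905 bp. Farther in were Klhl26 at 9149 bp, Nfia at 16170 bp upstream of the nearest start, Fshr, the receptor gene of follicle-stimulating hormone, at 57925 bp, and Plxdc2 at 70281 bp. The Atp2b1 peak with a score of 66, described above, followed. Akr1c18, the gene of an enzyme that inactivates progesterone, scored 61 at 4749 bp. Apbb2, whose product binds the amyloid precursor protein, scored 60 at 46194 bp. These 15 genes cover distances from 728 to 78079 bp, so high scores were not bound to the promoter's neighbourhood. A pair of peaks with a score of 77 is listed under Rik names and was left out of that rule. They lay in introns of Klf13 and Aopep, and the Aopep peak was 34711 bp from the nearest start.

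A score of 58, the next frequent step, was given to 30 members. Among them, chosen after their values were seen, were Egfr, the receptor gene of epidermal growth factor (24790 bp), Ctsb, the gene of cathepsin B (1042 bp), Mecom, a zinc finger transcription factor gene (6829 bp), and Pcsk5, a proprotein convertase gene (16356 bp). Ifit1, an interferon-induced gene, had its peak at 5262 bp in its only intron. Below these, Stim1, the calcium sensor of the endoplasmic reticulum, and Rapgef1, an exchange factor of small GTPases, both scored 53.

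The 789 peaks had 691 nearest genes. Of these, 616 had 1 first-intron peak, 61 had 2, 10 had 3, and 4 genes had more. Robo2, the gene of a receptor for the guidance ligands of the Slit family, had the most with 7. Its peaks spread over 396496 bp of chromosome 16, with scores of 49, 41, 41, 41, 31, 26 and 25, and the nearest to a start lay at 51484 bp. Kcnma1, which encodes the pore of the large-conductance calcium-activated potassium channel, had 5 peaks over 219803 bp of chromosome 14. They scored 58, 41, 41, 37 and 33, and the strongest lay 95738 bp from the start while the others lay at 218292 bp or more. No Robo2 or Kcnma1 member was thus near a promoter.

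A cluster of 9 peaks on chromosome 4 stood in intron 1 of 2 of a Zfp982 transcript, with 5 of them listed under Zfp985 and 4 under Zfp982. Scores ran from 22 to 58. These are closely related zinc finger genes in a region of near-identical copies, so the placing of reads among copies is uncertain, and the count of 9 is given with that limit. Nfia, a transcription factor gene of the nuclear factor I family that acts in adipogenesis, had 3 members with scores of 67, 41 and 23, at 16170, 67473 and 31576 bp upstream of the nearest start. Pde10a, a phosphodiesterase gene, had peaks at 1220 bp (score 33), 101056 bp (score 33) and 132719 bp (score 49). In Ror1, the gene of a Wnt5a receptor, the scores were 49, 33 and 33 between 74796 and 118661 bp. Magi2, a scaffold gene, Naaladl2 and Opcml, a cell adhesion gene, had 3 members each with scores of 28 to 41. Members rarely lay side by side: only 3 neighbouring pairs were within 1 kb, in Robo2, Hmgxb3 and Ppid, and 26 pairs were within 10 kb.

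Farthest from any start were peaks in genes of cell adhesion in neurons. Lsamp had a member at 671611 bp (score 31). Cntnap2 had members at 562590 bp (score 26), 502049 bp (score 25) and 453119 bp (score 33), and Opcml had a member at 504789 bp (score 33). None of these 5 scored above the list's median of 33.

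Among autosomal protein-coding genes, 631 of 20661 (3.05%) were the nearest gene of a first-intron peak, and that share was higher in longer genes. With genes ordered by length into 5 classes of equal size, it was 0.363% (15 genes) in the shortest class, up to 4389 bp, 1.38% in the middle class and 9.51% (393 genes, interval 8.65 to 10.4) in the longest, from 57924 bp. Later introns showed the same order, with 1.21% of the shortest, 3.65% of the middle and 16.6% of the longest class. The median length was 97156 bp for genes with a first-intron peak, 71149 bp for genes with a later-intron peak and 17491 bp for all. A gene list of long genes can therefore hold more members for its length alone, and list lengths are given with the counts below.

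**Figure D5:**
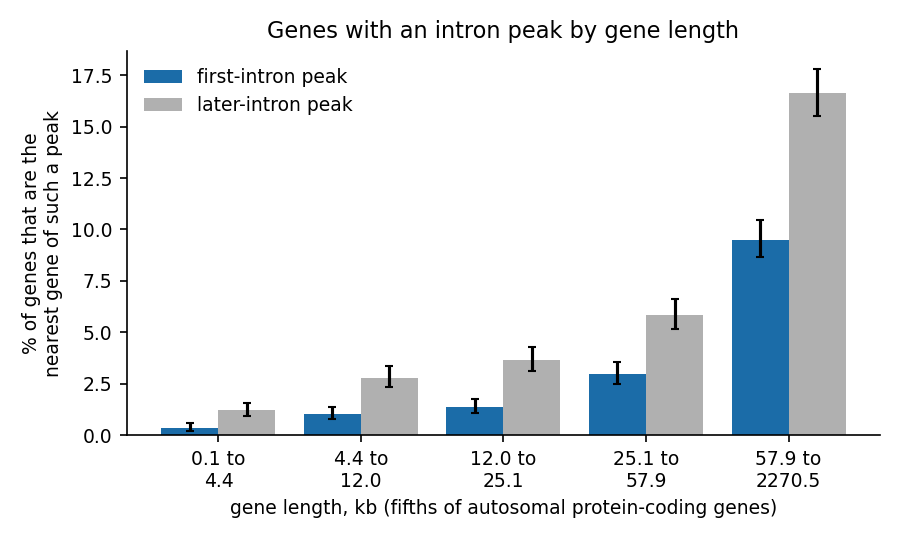
Share of autosomal protein-coding genes (vertical axis, percent) that are the nearest gene of a first-intron or later-intron PDGFRa+ peak outside repeats, in 5 classes of gene length of equal size (horizontal axis), with 95% Wilson intervals. The first-intron share is 0.363% in the shortest and 9.51% in the longest class, below the later-intron share in each class.

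Of the 370 autosomal genes of 17 lists, 35 (9.46%) had a first-intron peak, against 3.05% of all protein-coding genes. A higher share was not particular to first introns. For later introns most lists exceeded the 6.03% of all genes, as with 8 of 24 TGF-beta and 6 of 27 cyclic AMP genes. Insulin and IGF genes (1 of 24), white adipocyte markers (1 of 21) and progenitor, macrophage and mesothelial markers (0 each) did not. In 14 of the 17 lists the median gene was longer than the 17491 bp of all genes, and whether length accounts for the difference was not tested. Of the 31 glucocorticoid response genes (median length 13727 bp) 13 had a peak anywhere in the list, where the share over all protein-coding genes was 23.4%. A later-intron peak was present in 5 of the 31. A first-intron peak was present in 1, Hif3a (3.23%, interval 0.572 to 16.2), a share near the 3.05% of all genes. Of 23 coregulators of GR (80606 bp) 2 had one, both with a score of 41: Ncoa3, a p160 coactivator gene, at 6535 bp and Nrip1, which encodes the corepressor RIP140, at 4450 bp. Of 30 genes of factors that share sites with GR (20252 bp) 3 had one: Nfia, Tead1 and Nfkb1, the gene of the NF-kappaB subunit p50, with a score of 37 at 1992 bp.

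Tead1, the transcription factor gene of the series title, had 2 members, both in intron 1 of 12. The stronger (chr7:119823570-119823715 as deposited, score 49) lay 808 bp from the start and the weaker (chr7:119827809-119828015, score 26) 5078 bp from it. A further Tead1 peak with a score of 33 was also annotated to a first intron, of another transcript, but lay in a repeat and was not counted. In the list of the Hippo and TEAD pathway, which restrains growth by limiting the activity of TEAD factors, 3 of 27 genes had a member (median length 51180 bp). Besides Tead1 these were Lats2, a core kinase gene, with a score of 33 at 1020 bp, and Frmd6, an upstream regulator, with 39 at 5556 bp.

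Of 24 adipogenic transcription factor genes (82574.5 bp), Nfia and Rxra, the retinoid X receptor gene, had first-intron peaks, and the Rxra peak had a score of 33 at 12382 bp. Of 24 adipose progenitor markers (23457 bp), Thy1, a surface protein gene, scored 41 at 1249 bp, and Pdgfrb, the receptor gene most like Pdgfra, scored 31 at 13098 bp. Pdgfra itself and Nr3c1, the gene of GR, had no first-intron peak, but both were the nearest gene of peaks elsewhere. The Pdgfra peak, annotated to its promoter, lay at -911 bp, upstream of the start, and scored 42. Those of Nr3c1 scored 49 (intergenic, in a repeat), 38 (in an intron of Arhgap26), 30 (at the transcript's end) and 25 (intergenic). Of 24 insulin and IGF signalling genes (80278 bp), Tbc1d4, which controls glucose transporter traffic, scored 49 at 59619 bp and Igf1r, the IGF-1 receptor gene, 33 at 35936 bp. White adipocyte markers had 0 of 21 (13260 bp), which allows a share of up to 15.5%, and 5 of the 21 had a peak elsewhere, a share near the 23.4% of all genes. Each of these counts is small, and none but that of Nfia rests on a score above 50.

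TGF-beta signalling and matrix genes had members in 4 of 24 (69006 bp). These were Smad4, the common mediator, with a score of 41 at 12687 bp, the ligand gene Tgfb2 with 33 at 7395 bp, the corepressor gene Ski with 26 at 37991 bp and the receptor gene Acvr1 with 25 at 7670 bp. Cytoskeleton and adhesion genes, the list with the highest share among the pathways, had members in 5 of 27 (18.5%, interval 8.18 to 36.7; 163983 bp). Myh9, the gene of a non-muscle myosin heavy chain, scored 45 at 2634 bp and Cald1, the caldesmon gene, 41 at 755 bp. Myo1e, an unconventional myosin gene, scored 38 at 18016 bp, Rhoj, a small GTPase gene, 38 at 46453 bp, and the integrin gene Itga9 33 at 3931 bp. Cyclic AMP genes had 2 of 27 (Pde10a and Pde7b, 122717 bp), Wnt genes 1 of 25 (Ror1, 64595 bp), and inflammatory genes 2 of 24 (Nfkb1 and Csf1, 11763.5 bp). Csf1, the gene of macrophage colony-stimulating factor, scored 26 at 574 bp.

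Markers of other cell types were counted in the same way, although a peak near a gene is no measure of its expression. Endothelial and macrophage markers had 0 of 14 each, which allows up to 21.5%, and mesothelial markers had 1 of 13, Gpm6a with a score of 33 at 11322 bp. Neuronal genes had 8 of 20 (40.0%, interval 21.9 to 61.3), the highest share of the 17 lists. Of these 20 genes, 12 had a later-intron peak and 17 had a peak anywhere. Their median length was 1.11644e+06 bp, and with peaks within 100 kb of a start 4 of the 20 remained. The 8 were Nrxn3, Cntnap2, Dlg2, Csmd3, Lsamp, Opcml, Kcnip4 and Rbfox1, with no score above 41.

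Few genes with a first-intron peak also had a promoter peak, and their share was near that of all genes, where promoter peaks were rare too. Of the 631 genes 11 (1.74%, interval 0.976 to 3.09) had both, against 14 of 1246 genes with a later-intron peak (1.12%) and 207 of all 20661 (1.00%). In Atp2b1 the members at 728 bp (score 66) and 15147 bp (score 41) stood beside a promoter peak at -593 bp with a score of 49. Hdac7, a histone deacetylase gene, had a member with a score of 47 and a promoter peak with 49 at -91 bp, negative values being upstream. In Mnat1, which encodes an assembly factor of the CDK-activating kinase, the promoter peak (score 57) exceeded the member (score 33). Peaks in later introns were present in 97 of the 631 genes (15.4%, interval 12.8 to 18.4), against 6.03% of all genes, and intergenic peaks in 99 (15.7%), against 7.75% of all. The 631 genes have a longer median length than all genes, and the part of length in these differences was not tested.

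For 12 members (1.52%) the nearest start was that of a microRNA gene. The farthest were 2 near Mir383, with a score of 49 each, which lay 166349 and 282204 bp from its start in the first intron of Sgcz. The shortest distances were 1161 bp for Mir5131 in Ddhd1 (score 38) and 1443 bp for Mir7649 in Clec2g (score 26). The mature products of Mir26a-2 and Mir340 are shown from RefSeq as examples (GRCm38.p6, plus strand), with the seed, bases 2 to 8, in capitals. The Mir26a-2 products come from chr10:126995543-126995564 and chr10:126995581-126995602, and those of Mir340 from chr11:50069720-50069741 and chr11:50069762-50069783.
mmu-miR-26a-5p: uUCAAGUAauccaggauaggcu
mmu-miR-26a-2-3p: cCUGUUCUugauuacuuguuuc
mmu-miR-340-5p: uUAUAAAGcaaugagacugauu
mmu-miR-340-3p: uCCGUCUCaguuacuuuauagc
The 4 seeds differ. The peak near Mir26a-2 lay 5119 bp upstream of the microRNA in the first intron of Ctdsp2 and scored 26, and the peak near Mir340 lay 21125 bp upstream in the first intron of Rnf130 and scored 33. Both hosts have a start of their own, so no peak is assigned to the microRNA by its distance alone.

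In CD137+ cells GR was given as a separate table of 23 intervals on another build, selected for CD137+ signal. A member was matched to an interval when their offsets from the same gene differed by at most 500 bp. Of the 23 intervals, 5 matched a peak of the PDGFRa+ list and 2 of these were first-intron peaks. The Klf13 peak (chr7:71041866-71042043 as deposited, score 77) was listed 19789 bp upstream of E030018B13Rik and differed by 20 bp from the CD137+ interval, whose table value was 67. The Apbb2 peak (chr5:66963788-66963936, score 60) lay 46194 bp from the start and differed by 15 bp from an interval with a value of 65. Klf13 encodes a zinc finger transcription factor of the KLF family. Both matched members scored at least 60. The other matched peaks, listed under Tns1, Zhx3 and Per1, scored 77, 40 and 38. In the whole list 789 of 10402 peaks were members. Hif3a is named in both tables, but its 2 positions are measured from different starts (4107 bp into the gene in the CD137+ table) and could not be matched. Zhx3, a zinc finger and homeobox gene, had a member with a score of 45 at 519 bp in a CpG island, and its CD137+ interval at 67678 bp matched a different peak, in intron 2. Since the tables were made and selected differently, these counts do not compare the cell types.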

How the data were processed

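GR chromatin immunoprecipitation and sequencing was done on PDGFRa+ and CD137+ adipose progenitors, with 1 immunoprecipitate and 1 input each. Per the submitters' processing notes, FastQC, Bowtie2, MACS2, SAMtools, bedtools 2.17.0 and mm10 were used, with no role or setting named. The PDGFRa+ list gives, per the file headers, a position, a deposited peak score, an annotation and the nearest start site for each peak. The score is a whole number from 20 up of unstated scale. The CD137+ table gives peak values deposited by the authors as a signal in a unit no header explains. Which pooling, threshold or input correction was used is not given in the sources used here.

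Implied start sites showed that the PDGFRa+ coordinates are on a build other than GRCm38, although mm10 is named. They are printed as deposited, and RefSeq (GRCm38.p6) served for names, lengths, promoter windows and microRNAs. A list row whose end was not a number (1) and a row with no nearest gene (1) are counted in the 10402 only. Here the intron number, repeat label, CpG label and host gene were read from the annotation, and peaks were counted by class with 95% Wilson intervals (Python 3.11.15, pandas 2.3.3, SciPy 1.17.1). The scripts were tested on simulated data. Sites were matched to the CD137+ table by the distance to a gene (500 bp).

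Named genes are those of the 15 highest scores, the genes with most members, the 8 nearest and 5 farthest members, the highest members of each list, genes also in the CD137+ table, and Tead1, Pdgfra, Nr3c1 and Klf13. Predicted, Rik and LOC names were left out of the first 3 parts. The peaks, the 17 lists and this rule were chosen with earlier results of these data known. Settings varied were score, repeats, chromosomes, transcripts, distance windows and gene assignment.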

Additional observations from a re-analysis of the deposited data

How the results depend on the processing

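With a score of 50 or more there were 54 first-intron peaks in place of 789, in 54 genes in place of 691, with 2 listed genes in place of 35. These counts fall because fewer peaks enter. The median distance of the 54 was 16806.5 bp, with an interval of 6829 to 38325 that includes the 11319 bp of all members. Of the 54, 33.3% lay within 5 kb of a start. The share of intron peaks in intron 1 was 28.4% in transcripts with at least 3 introns and 22.9% (interval 21.2 to 24.7) more than 5 kb from a start, so part of the 30.3% comes from peaks near starts. The share within 5 kb of a start, 36.0%, was 30.7% with repeat peaks kept, and 29.4% and 47.1% with windows of 3 and 10 kb. With repeat peaks kept there were 1150 first-intron peaks, and 586 at or above the list's median score. These were among 25 of the 34 recomputed main values that stayed within the limits set for them, 1.5 times for a count. Genes with at least 2 members numbered 75, against 130 with repeat peaks kept and 0 at a score of 50 or more. Without the Zfp982 locus 780 members were left. That setting, the 5 kb minimum, the 100 kb limit and the requirement that host and nearest gene be the same were chosen after seeing the data. No paired analysis was possible because each group has 1 library, and no replicate could be left out. Read depth is unknown, and a site without a peak is not shown to be unbound.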

Other observations

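Gene families were counted by symbol, after values had been seen, so the counts describe and support nothing. Protein tyrosine phosphatase genes had a first-intron peak in 10 of 38 (26.3%, upper bound 42.0%), with a median gene length of 93608 bp, against 3.05% of all protein-coding genes. Ptprd, a receptor-type phosphatase gene, scored 58 at 213579 bp. Ptpn1, whose product dephosphorylates the insulin receptor, Ptpn3 and Ptprk scored 41 each. Ptpn11, the gene of SHP2, scored 30 at 11823 bp. The lowest was Ptpro at 20.

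Potassium channel genes and their accessory subunits had a first-intron peak in 11 of 91 (12.1%, interval 6.89 to 20.4; median length 36216 bp). Kcnma1 and Kcnk10, a background channel gene, reached 58, Kcnn3 reached 49 at 38595 bp, and Kcnh1 and Kcnc4 reached 41 at 1469 and 723 bp. Solute carrier genes had 11 of 376 (2.93%, interval 1.64 to 5.16), near the share of all genes, and Slco3a1 at 87 was their highest. Genes named Zfp had 16 of 388 (4.12%), collagen genes 1 of 42 and forkhead genes 1 of 41. Among further families, 5 of 90 cadherin and protocadherin genes, 3 of 27 semaphorin and plexin genes and 3 of 19 Robo, Slit, Unc5 and netrin genes had a member. Cdh12, a cadherin gene, scored 53 at 94962 bp.

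Across autosomes, the share of intron peaks that lay in intron 1 was between 25.6% on chromosome 15 (interval 18.9 to 33.6) and 39.1% on chromosome 3 (31.4 to 47.5), and these intervals overlap. Chromosome 16 had 63.3 members per 1000 protein-coding genes and chromosome 7 had 16.3, the extremes of the 19 autosomes. This order was not particular to first introns. All intron peaks outside repeats numbered 126 for 679 genes on chromosome 16 and 115 for 2030 genes on chromosome 7.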
